A study of Mus musculus with 8 samples.

Results

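The complement system of mouse wound skin was examined through 9 genes, picked by symbol from a table of 18540 genes: the C1q chains C1qa, C1qb and C1qc, the classical and lectin pathway genes C4b and Masp1, the central component C3 with its alternative pathway partner Cfb, and the anaphylatoxin receptors C3ar1 and C5ar1. RNA was sequenced from 4 control wound samples and 4 samples of wounds treated with Z1C2Z, to ask how the material changed transcription in the wound. Z1C2Z is a nanocomposite of ZnO2 and CeO2 carried in the zinc imidazolate framework ZIF-8, and it is the version with the higher CeO2 ratio. The labels give the tissue as skin and title the groups con and shiyan, and the treated group is called Z1C2Z here because the study shows sequenced samples of that name with the same numbers. In its wound experiments the material was injected at the wound edge at 100 µg/kg and control wounds received phosphate-buffered saline, and tissue for sequencing was taken after 15 days of treatment. By their titles the control samples carry the numbers 1, 2, 3 and 5 and the Z1C2Z samples the numbers 1, 2, 4 and 5, and values are given in that order. The study worked with C57BL mice and with diabetic db/db mice, and the strain, age and genotype of the sequenced animals were not given in the sources used here. Each mouse of the study carried a pair of full-thickness wounds on its back, and nothing says that the samples of a group came from separate mice, so the p-values measure only the spread between these samples.

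Complement is a cascade of plasma and tissue proteins that tags microbes and damaged cells and calls in leukocytes. Its classical pathway starts when C1q binds antibody or altered surfaces, its lectin pathway when mannose-binding lectin or ficolins bind sugars with the help of the MASP proteases, and its alternative pathway amplifies both through factor B. All routes meet at the cleavage of C3, and the small fragments C3a and C5a act on receptors of myeloid cells. The liver makes most of the plasma proteins, while in skin macrophages are a main source of C1q and fibroblasts and keratinocytes also make C3 and factor B.

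Each library held between 28856790 and 38974888 counts, and 15147 genes passed the low-count filter, all 9 complement genes among them. The main axis of variation, with 62.2% of the variance, placed the control samples between -62.9 and -12.2 and Z1C2Z-5 at -0.291, close to them. Z1C2Z-1 lay at 28.1, and Z1C2Z-2 and Z1C2Z-4 stood apart at 65.7 and 67.7. Hair shaft genes were higher in the treated wounds for 8 of 8 markers, with a summed level of 195 to 1053 CPM in control and 1252 to 5494 CPM in Z1C2Z (CPM, counts scaled to a common library size). Skeletal muscle markers were lower for 3 of 8 (Acta1, Myh1 and Ryr1), with sums of 3090 to 5594 CPM against 2556 to 2875 CPM. A fit with a muscle score is given for Masp1, for C5ar1 and in the closing section. The score, the mean log2 CPM of the 8 muscle markers, was 8.17 to 9.10 in control and 7.95 to 8.11 in Z1C2Z. Because it does not overlap between the groups, that fit cannot separate muscle share from treatment. Whether the unequal share of hair follicle or muscle in the samples has a part in the values below was not tested.

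The treated wounds carried less Masp1 RNA than the control wounds, at 41.5% of the control level, and Masp1 was the 1 gene of the 9 that passed the test. C5ar1, the C5a receptor, also had every Z1C2Z sample below every control sample, at 52.4% of control, but its adjusted p of 0.0706 missed the threshold. The fitted log2 fold change (Z1C2Z minus control) was below 0 for all 9 genes, with a median of -0.45, against a median of 0.01 over all tested genes, of which 48.9% were below 0. C3, Cfb, C4b and C3ar1 differed widely among the treated samples, being below every control sample in Z1C2Z-2 and Z1C2Z-4 and within or above the control range in Z1C2Z-1 and Z1C2Z-5.

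A gene was called when its adjusted p was under 0.05 in the quasi-likelihood test of edgeR, adjusted over all tested genes by the Benjamini-Hochberg method. By this rule 1 of the 9 complement genes was lower and 0 were higher, against 3.85% of all tested genes lower and 4.28% higher. With a log2 fold change beyond 1 in size also required, it was still 1 of 9, against 1.25% of all genes. At an unadjusted p under 0.05, 5 of 9 were lower (the C1q chains, Masp1 and C5ar1) against 15.2% of all genes, and 0 of 9 higher against 12.8%. Without any model, 2 of 9 genes had every Z1C2Z sample below every control sample against 8.82% of all genes, and 0 of 9 had every one above against 8.45%. DESeq2, run as an alternative, called 2 of 9 lower (Masp1 and C5ar1) against 9.31% of its genes, and 0 of 9 higher against 7.65%. In whole tissue, fewer cells of a type and less RNA per cell cannot be told apart.

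**Figure D1:**
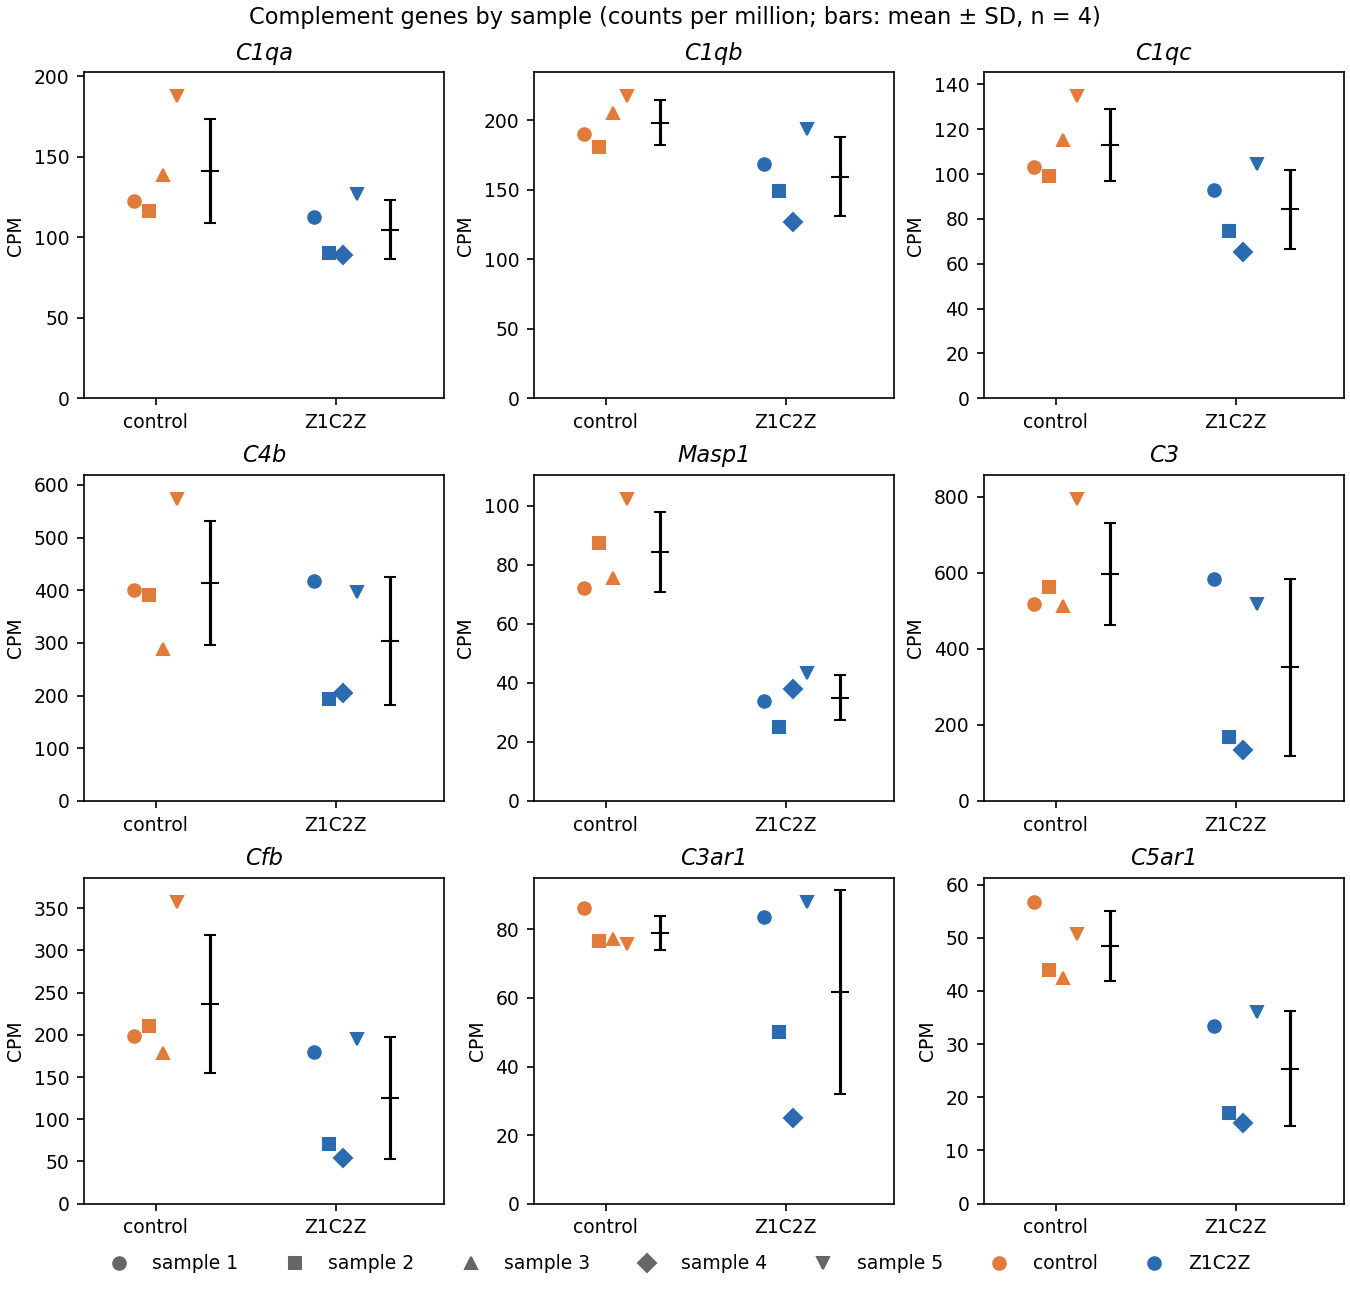
Each panel plots 1 gene, with CPM on the vertical axis from 0, the 4 control samples in orange and the 4 Z1C2Z samples in blue; shapes give the sample number and bars the mean ± SD. The groups are separate for Masp1 and C5ar1, while for C3, Cfb, C4b and C3ar1 the blue points split into Z1C2Z-2 and Z1C2Z-4 at the bottom and Z1C2Z-1 and Z1C2Z-5 higher up.

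The 3 genes of C1q code for the A, B and C chains, which join into the 1 molecule that starts the classical pathway. C1qa (Entrez 12259) was at 122, 117, 139 and 187 CPM in the control samples and at 113, 90.0, 89.1 and 127 CPM in the Z1C2Z samples. C1qb (Entrez 12260) was at 190, 181, 206 and 217 CPM in the control samples and at 169, 149, 127 and 194 CPM in the treated ones. C1qc (Entrez 12262) was at 103, 99.2, 115 and 135 CPM against 92.9, 74.5, 65.2 and 104 CPM. In each case Z1C2Z-5 lay inside the control range and the other 3 treated samples below it, so the groups overlapped through 1 sample. The log2 fold changes were -0.43 (SE 0.18) for C1qa, -0.31 (SE 0.13) for C1qb and -0.42 (SE 0.16) for C1qc, with edgeR adjusted p-values of 0.147, 0.163 and 0.127. In a 2-sided exact permutation test over the 70 arrangements of 4 against 4, whose smallest p is 0.0286, the p-values were 0.114, 0.0857 and 0.0857. The 95% intervals, not adjusted for the number of genes, ran from -0.83 to -0.04, from -0.62 to -0.01 and from -0.79 to -0.06.

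Of all pairs of the 9 genes, the C1q chains differed least in their profiles across the samples. With each gene's log2 CPM centred on its own mean, the root mean square difference over the 8 samples was 0.086 between C1qb and C1qc, 0.089 between C1qa and C1qc and 0.144 between C1qa and C1qb. The next pair was C3 with Cfb at 0.158, and each of the other pairs differed by 0.300 or more. This measure is also smaller where genes vary little. The SD of log2 CPM in Z1C2Z was 0.25 to 0.31 for the chains, against 1.09 for C3 and 0.93 for Cfb. How tightly the pairs moved together apart from this was not tested. Within a sample the log2 ratio of C1qa to C1qb was -0.51 ± 0.20 (SD, n = 4) in control and -0.61 ± 0.093 in Z1C2Z, and that of C1qc to C1qb was -0.82 ± 0.087 and -0.93 ± 0.065. The genes are direct neighbours on chromosome 4 in the RefSeq annotation of GRCm38.p6, in the order C1qb, C1qc, C1qa. Because their profiles are close, the 250 bases before the start sites of C1qb and C1qc are shown. They are given 5′ to 3′ on the minus strand on which both genes lie. These bases are at chr4:136886201-136886450 and chr4:136892915-136893164 in the RefSeq table of GRCm38.p6. C1qa, C4b, Cfb and Masp1 had no entry there. The capitals mark a match to an exact spelling of the ETS motif, the site of factors such as PU.1 of myeloid cells.
C1qb promoter: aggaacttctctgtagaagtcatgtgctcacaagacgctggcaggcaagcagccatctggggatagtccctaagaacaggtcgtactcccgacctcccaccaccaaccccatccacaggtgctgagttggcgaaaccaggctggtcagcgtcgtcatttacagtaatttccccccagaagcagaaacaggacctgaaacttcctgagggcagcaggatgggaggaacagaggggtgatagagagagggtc
C1qc promoter: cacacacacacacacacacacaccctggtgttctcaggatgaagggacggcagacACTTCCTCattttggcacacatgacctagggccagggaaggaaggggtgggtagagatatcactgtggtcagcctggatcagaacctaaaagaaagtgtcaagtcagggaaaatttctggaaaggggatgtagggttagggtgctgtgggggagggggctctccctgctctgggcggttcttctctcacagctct
The capitals of C1qc read the searched letters GAGGAAGT on the other strand and lie at bases -195 to -188 from the start. Both strands of the 300 bases from 250 before to 50 after the start were searched, and 3.202% of the 32851 promoters in the table hold these letters. The C1qb window has no match to them, nor to the STAT motif TTCNNNGAA, the kappaB motif GGANNTTCC or the interferon response motif GAAANNGAA. It does hold acttcctg, which differs from the capitals of C1qc in the last base only. The contrast between the promoters thus rests on a search for exact letters. A match is a description of the letters only.

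Macrophage markers are the closest yardstick for C1q. None of 8 (Adgre1, Csf1r, Cd68, Mrc1, Cd163, Mertk, Fcgr1 and Lyz2) passed the test and all 8 were below 0, with a summed level of 2338 to 2595 CPM in control and 1382 to 2346 CPM in Z1C2Z. Their mean log2 CPM was 7.21 to 7.27 in the control samples, and 7.13, 6.61, 6.36 and 7.22 in Z1C2Z samples 1, 2, 4 and 5. The mean of the C1q chains relative to this marker mean was -0.06 ± 0.21 in control and -0.04 ± 0.16 in Z1C2Z on the log2 scale, a difference of 0.02 (exact permutation p = 0.886). That difference is smaller than the SD of either group. This ratio is 1 of 12 within-sample ratios that were picked after the values were seen, and p-values adjusted over the 12 are given where a ratio did not overlap.

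C4b (Entrez 12268) codes for the mouse C4 protein, which is cut in the classical and lectin pathways and becomes part of their C3 convertase. Its levels were 401, 391, 289 and 573 CPM in the control samples and 418, 193, 205 and 397 CPM in the Z1C2Z samples. Z1C2Z-1 and Z1C2Z-5 were level with the control samples, and Z1C2Z-2 and Z1C2Z-4 lay below all of them. The log2 fold change was -0.45 (SE 0.30), with a 95% interval from -1.12 to 0.23 and an edgeR adjusted p of 0.358. The near-identical gene C4a was not analysed here, so reads of C4a may be counted under C4b and the value is uncertain to that extent.

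Masp1 (Entrez 17174) codes for MASP-1, the protease that starts the lectin pathway, and by splicing also for MASP-3, which activates factor D of the alternative pathway, and for the inhibitor MAp44. These forms were counted as 1 gene and were not told apart. Its levels were 72.2, 87.2, 75.6 and 102 CPM in the control samples and 33.8, 25.2, 37.8 and 43.3 CPM in the Z1C2Z samples. Every treated sample, Z1C2Z-5 included, lay well below the lowest control sample. The mean was 84.3 ± 13.6 CPM (SD, n = 4) in control and 35.0 ± 7.64 CPM in Z1C2Z, a log2 fold change of -1.27 (SE 0.18, 95% interval -1.67 to -0.87). The edgeR adjusted p was 0.0280 and the exact permutation test gave 0.0286, the smallest p that 4 against 4 allows. Ordered by p, Masp1 was gene 22 of the 15147 tested. The direction was the same in all 16 alternatives, with log2 fold changes from -1.39 to -1.13, and the adjusted p was under 0.05 in 9 of them. The call was lost without control-5 (adjusted p = 0.0693), Z1C2Z-1 (0.0661), Z1C2Z-2 (0.0888) or Z1C2Z-4 (0.0876), fits in which edgeR called no gene of the table and 3100 to 4208 genes had an unadjusted p under 0.05. It was lost as well without Z1C2Z-2 and Z1C2Z-4 together (0.280), where again no gene was called and 1980 had an unadjusted p under 0.05, and without control-1 and control-5 together (0.0686), a fit that still called 9 genes lower and 4 higher. It was also lost with a skeletal muscle score as a covariate, where the log2 fold change was -1.33 and the adjusted p 0.116, and there too edgeR called no gene, with 2970 at an unadjusted p under 0.05.

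The fall in Masp1 was set beside genes of the same tissue. Relative to the mean of the C1q chains in the same sample, the log2 ratio of Masp1 was -0.89, -0.55, -0.97 and -0.79 in the control samples and -1.84, -1.99, -1.25 and -1.66 in the Z1C2Z samples. The groups did not overlap (exact permutation p = 0.0286, 0.114 adjusted over the 12 ratios). Fibroblasts are a major cell type of the dermis, and 2 of 6 of their markers were lower (Dcn and Lum), with all 6 below 0 and sums of 54834 to 78015 CPM in control and 43054 to 60493 CPM in Z1C2Z. Relative to the mean of these markers, Masp1 was at -5.93 ± 0.20 in control and -6.66 ± 0.25 in Z1C2Z, again with no overlap (exact permutation p = 0.0286, 0.114 adjusted). The differences were -0.88 relative to C1q and -0.74 relative to fibroblast markers on the log2 scale, with p-values that do not pass the adjustment. Markers of hepatocytes, the liver cells, had little RNA in the samples, and of 5 only Alb was tested. Their sum was 0.749 to 12.01 CPM in control and 0.954 to 2.22 CPM in Z1C2Z. RNA does not measure complement protein that plasma brings from the liver.

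C3 (Entrez 12266) is the protein at which all 3 pathways meet. It was at 518, 562, 512 and 794 CPM in the control samples and at 585, 169, 135 and 519 CPM in the Z1C2Z samples. Z1C2Z-1 and Z1C2Z-5 stood inside the control range and the other 2 far below it. The highest treated sample was 4.34 times the lowest, against 1.55 times among the control samples, and the SD of log2 CPM was 1.09 against 0.30. The means were 596 ± 134 CPM and 352 ± 233 CPM (SD, n = 4), and the log2 fold change was -0.76 (SE 0.45, 95% interval -1.77 to 0.25, edgeR adjusted p = 0.301). Of 6 keratinocyte markers 0 passed and 5 were above 0, with sums of 11903 to 14493 CPM in control and 13335 to 18526 CPM in Z1C2Z.

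Cfb (Entrez 14962) codes for factor B, which joins the C3b fragment to form the convertase of the alternative pathway. Its levels were 199, 211, 178 and 358 CPM in control and 180, 71.2, 54.5 and 195 CPM in Z1C2Z. It fell into the same pattern as C3, with Z1C2Z-2 and Z1C2Z-4 low and the other 2 at the lower end of the control range. The log2 fold change was -0.92 (SE 0.42, 95% interval -1.86 to 0.03, edgeR adjusted p = 0.189). The log2 ratio of Cfb to C3 within a sample was -1.37 ± 0.16 in control and -1.42 ± 0.20 in Z1C2Z, a difference of -0.05 (exact permutation p = 0.714). The ratio of C3 to the mean of the C1q chains did vary among treated samples, at 2.27, 0.76, 0.58 and 1.92 on the log2 scale in Z1C2Z samples 1, 2, 4 and 5 against 1.79 to 2.17 in control.

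C3ar1 (Entrez 12267) is the receptor of C3a on macrophages, neutrophils and mast cells. It was at 86.3, 76.7, 77.1 and 75.8 CPM in the control samples, the narrowest spread of the 9 genes, and at 83.5, 50.1, 24.9 and 88.1 CPM in the Z1C2Z samples. Z1C2Z-5 was the highest of all 8 samples and Z1C2Z-4 the lowest. The log2 fold change was -0.36 (SE 0.33, 95% interval -1.10 to 0.38, edgeR adjusted p = 0.507). Of 5 mast cell markers 0 passed, with sums of 159 to 245 CPM and 156 to 201 CPM. Without Z1C2Z-2 and Z1C2Z-4 the log2 fold change of C3ar1 was 0.12, so its direction rested on those 2 samples. They are the lowest treated samples for this gene, so leaving them out raises the value by construction.

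C5ar1 (Entrez 12273) is the receptor through which C5a attracts and activates neutrophils and macrophages. Its levels were 56.8, 43.9, 42.4 and 50.7 CPM in control and 33.4, 17.0, 15.1 and 36.0 CPM in Z1C2Z. All 4 treated samples were below all 4 control samples, Z1C2Z-1 and Z1C2Z-5 less far than the others. The means were 48.4 ± 6.64 CPM and 25.4 ± 10.9 CPM (SD, n = 4), with a log2 fold change of -0.93 (SE 0.28, 95% interval -1.56 to -0.30). The exact permutation p was 0.0286, the smallest possible, while the edgeR adjusted p was 0.0706. DESeq2 gave an adjusted p of 0.00888 with a log2 fold change of -0.94, and edgeR without Z1C2Z-5 gave 0.0323. These were the only 2 of the 16 alternatives with an adjusted p under 0.05. The highest was 0.416, in edgeR with the skeletal muscle score as a covariate, at a log2 fold change of -0.62. That fit called no gene of the table. Without Z1C2Z-2 and Z1C2Z-4 the log2 fold change was -0.48 (edgeR adjusted p = 0.299).

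The receptors were also set against markers of the cells that carry them. Relative to the macrophage marker mean, C5ar1 was at -1.66 ± 0.22 in control and -2.27 ± 0.24 in Z1C2Z with no overlap (exact permutation p = 0.0286, 0.114 adjusted over the 12 ratios), whereas C3ar1 was at -0.94 ± 0.11 and -1.05 ± 0.46 (exact permutation p = 0.971). The log2 ratio of C5ar1 to C3ar1 was -0.71 ± 0.14 in control and -1.22 ± 0.35 in Z1C2Z, where Z1C2Z-4 at -0.72 lay inside the control range (exact permutation p = 0.0857). Of the neutrophil markers, none of the 7 tested passed, 7 were below 0, and their sum was 611 to 1558 CPM in control and 176 to 721 CPM in Z1C2Z. Most of this sum was S100a8 and S100a9, with means of 378 and 628 CPM in control and 157 and 244 CPM in Z1C2Z. Ly6g, which defines neutrophils in the mouse, had at most 6 counts in any sample and was not tested. The neutrophil marker mean of log2 CPM was 5.10 to 5.86 in the control samples and 4.62, 3.90, 3.08 and 5.50 in Z1C2Z samples 1, 2, 4 and 5, so the treated samples came in the same order as for C5ar1, C3ar1 and the macrophage marker mean. For the neutrophil markers the control samples came in the reverse of their C5ar1 order, with control-1 the highest for C5ar1 and the lowest for the neutrophil markers. Control-1 was also the lowest control sample for the macrophage marker mean, at 7.21 against 7.24 to 7.27 in the others. The part of either cell type in the lower C5ar1 level was not tested.

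**Figure D2:**
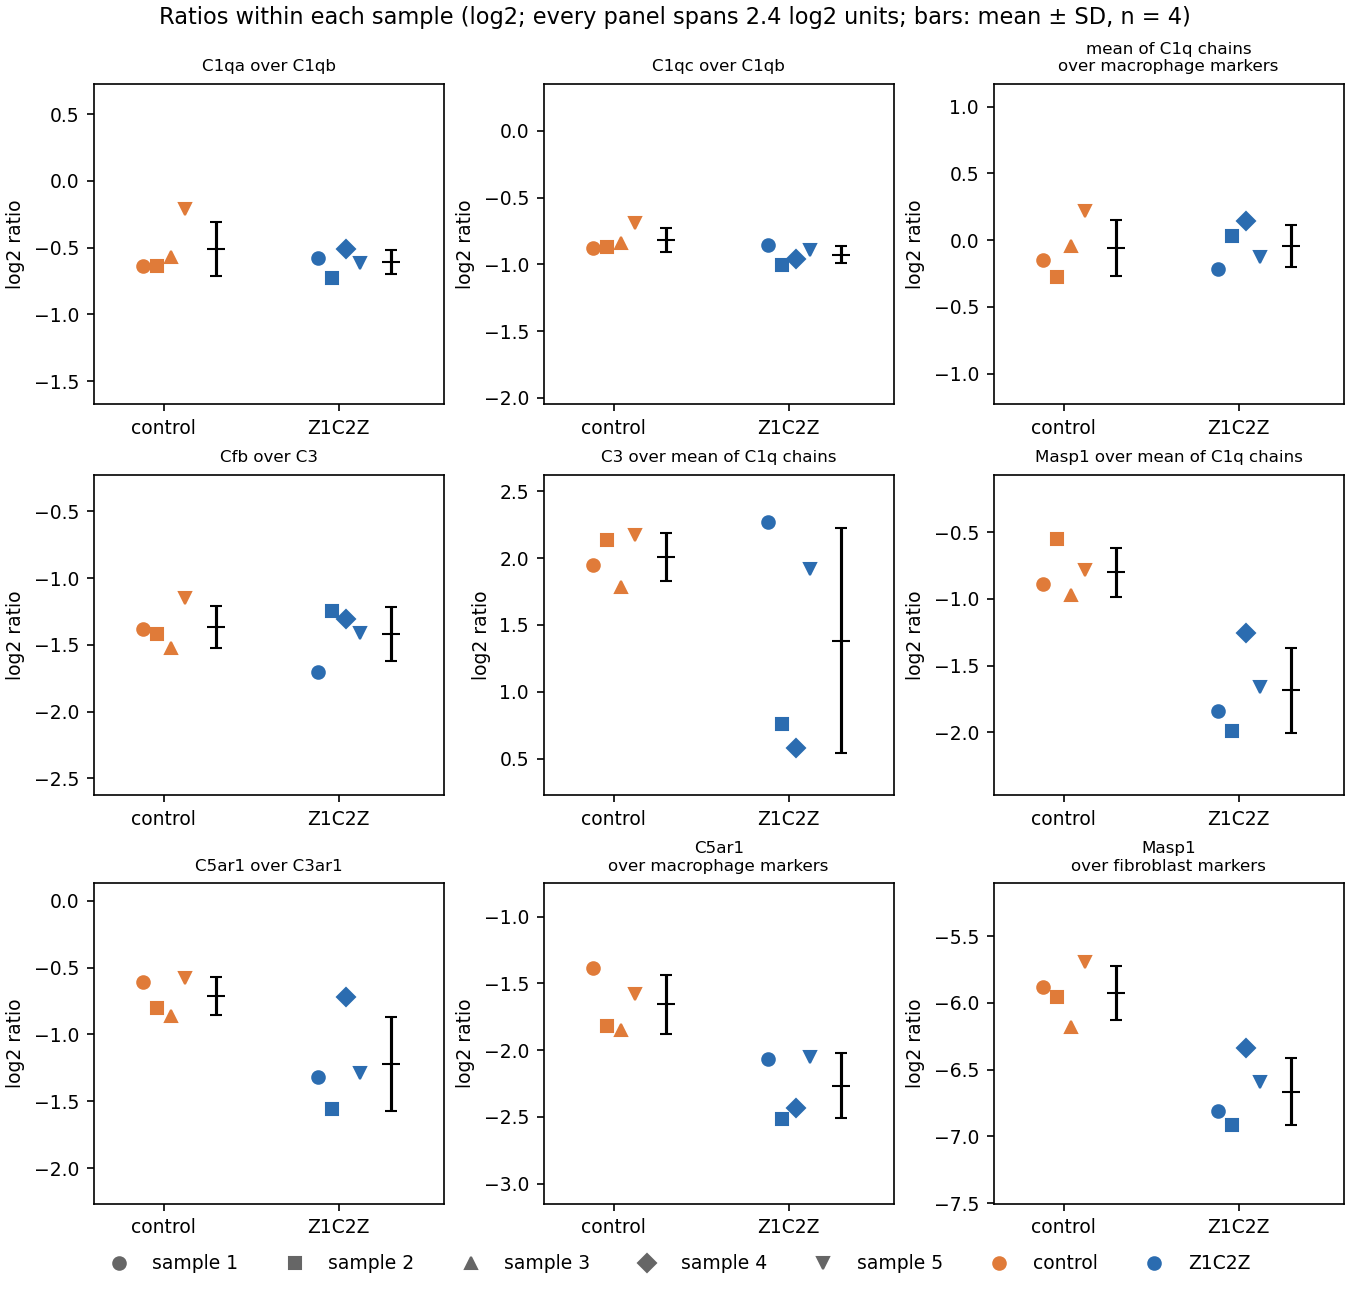
Each panel plots a log2 ratio of CPM within the same sample, control in orange and Z1C2Z in blue, with bars for the mean ± SD (n = 4) and the same span of 2.4 log2 units on every vertical axis. The ratios of Masp1 to C1q, C5ar1 to macrophage markers and Masp1 to fibroblast markers separate the groups, and those of C1q to macrophage markers and Cfb to C3 sit level.

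The treated samples differed in how many complement genes were low. Z1C2Z-2 and Z1C2Z-4 were each below the lowest control sample in 9 of 9 genes, where 30.0% and 30.5% of all tested genes were that low. Z1C2Z-1 was below it in 5 of 9 (C1qa, C1qb, C1qc, Masp1 and C5ar1) against 23.3% of all genes. Z1C2Z-5 was below it in 2 of 9 (Masp1 and C5ar1) against 18.3%. Together the 9 genes took 0.160% to 0.231% of all counts in the control samples, and 0.178%, 0.0865%, 0.0769% and 0.176% in Z1C2Z samples 1, 2, 4 and 5. Masp1 and C5ar1 were therefore the genes whose level was low in every treated wound, and the others were low in part of them.

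The abundance of the genes can be compared only per length of transcript. Scaled to the union of annotated exons in GENCODE vM21, in CPM per kilobase, the control means ran from C1qb (182 ± 14.8) through C1qa (136 ± 31.0), C3 (116 ± 26.0), Cfb (83.7 ± 29.01), C4b (72.6 ± 20.7) and C1qc (58.5 ± 8.23) to C5ar1 (18.8 ± 2.59), C3ar1 (18.3 ± 1.14) and Masp1 (8.58 ± 1.38), each as SD over n = 4. The control ranges of neighbours in this order overlapped except for C1qc above C5ar1 and C3ar1 above Masp1. In Z1C2Z the means were 147 ± 26.3 for C1qb, 101 ± 17.6 for C1qa and 68.4 ± 45.3 for C3. Masp1, at 3.56 ± 0.776, was lowest per length in both groups. The scaling depends on the annotation: the Masp1 exons span 9833 bases over 3 coding transcripts, and its level per length rests on that union.

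**Figure D3:**
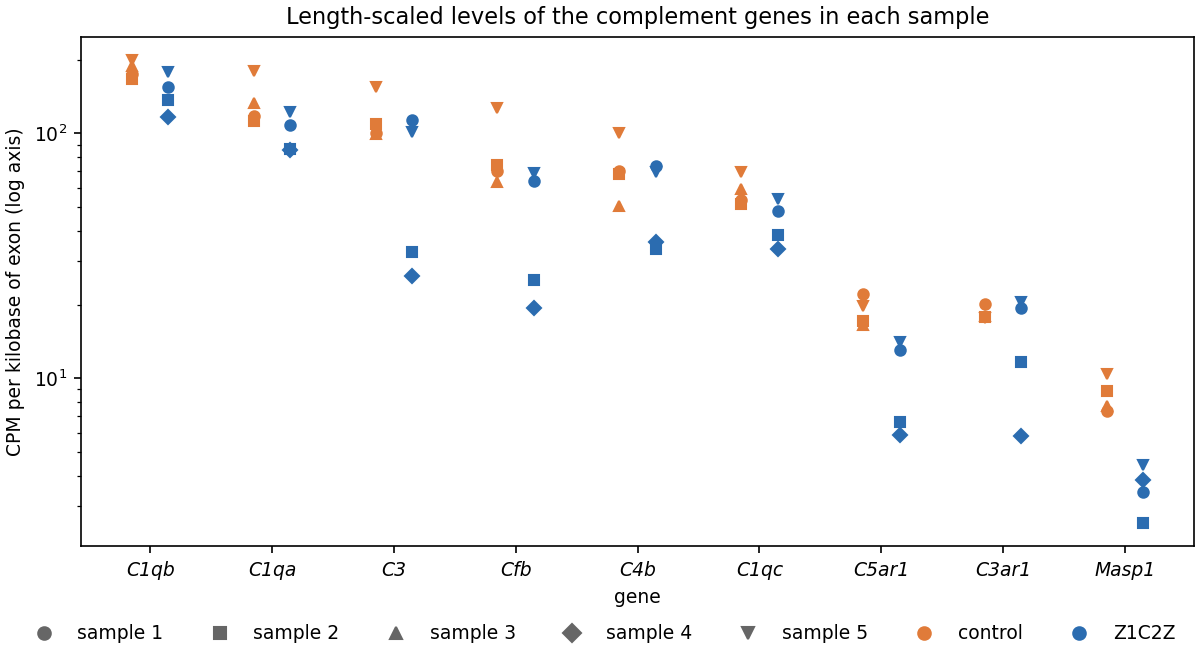
CPM per kilobase of exon on a log axis for each gene, ordered by the control mean, with control samples in orange to the left and Z1C2Z samples in blue to the right. The C1q chains, C3, Cfb and C4b lie about an order of magnitude above Masp1, and the lowest blue points of most genes are Z1C2Z-2 and Z1C2Z-4.

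Outside the 9 genes, a list of 50 other complement genes was followed by role, of which 46 were in the table and 35 were tested. edgeR called 0 of 35 in either direction, with 8 lower and 2 higher at an unadjusted p under 0.05, against 15.2% and 12.8% of all tested genes. DESeq2 called 3 of 35 lower and 1 higher, against 9.31% and 7.65% of its genes. Without any model, 3 of 35 had every Z1C2Z sample below every control sample and 2 had every one above. Over all tested genes these shares were 8.82% and 8.45%. The median log2 fold change was -0.22, with 24 genes below 0 and 11 above. Of the untested genes, Mbl1, Mbl2, Fcnb, C8a, C8b, Csmd2 and Cr2 had at most 3 counts in every sample, so the RNA of mannose-binding lectin, a partner of MASP-1, was at or near 0 in these wounds. The listed genes outside the table, C4a and C1s among them, were not analysed here.

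Among the early proteases of the classical pathway, all 6 tested genes were below 0. The most abundant, C1s1, which codes for the C1s protease that cuts C4, was at 468 ± 52.0 CPM in control and 346 ± 82.5 CPM in Z1C2Z (log2 fold change -0.44, SE 0.17, edgeR adjusted p = 0.132). Fcna, the ficolin A of macrophages and the most abundant lectin pathway gene of the list, was at 10.1 ± 4.73 CPM and 5.41 ± 3.46 CPM (-0.90, SE 0.51, adjusted p = 0.281).

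Both tested genes of the alternative pathway were below 0 as well. Cfd, the factor D protease made by fat cells, was at 135 ± 29.4 CPM in control and 98.9 ± 21.7 CPM in Z1C2Z (log2 fold change -0.45, SE 0.19, edgeR adjusted p = 0.157). Of 5 adipocyte markers 0 passed and 4 were below 0, with sums of 121 to 191 CPM and 90.1 to 146 CPM. Cfp, the properdin that stabilises the convertase, was at 68.6, 68.6, 70.2 and 82.8 CPM in control and 57.9, 41.3, 32.0 and 67.2 CPM in Z1C2Z. The groups did not overlap, by a small gap, and the adjusted p was 0.127, or 0.0434 without Z1C2Z-5. The terminal components that build the membrane attack complex went the other way in sign for 4 of 5, none of them called. C7, the most abundant, was at 35.2 ± 21.4 CPM and 37.5 ± 10.03 CPM (0.09, SE 0.40, adjusted p = 0.899), a direction that turned in other fits. C8g had every treated sample above every control sample but rested on 3 to 17 counts a sample.

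Regulators and further receptors were mixed. Serping1, the C1 inhibitor that blocks the C1 and MASP proteases, was at 562 ± 189 CPM in control and 334 ± 96.2 CPM in Z1C2Z (log2 fold change -0.75, SE 0.26, edgeR adjusted p = 0.101, DESeq2 0.0264). Cd55, which speeds the decay of convertases, was at 131 ± 29.3 CPM and 122 ± 16.5 CPM (-0.10, adjusted p = 0.729). Cr1l, another convertase inhibitor of the cell surface, was at 83.0, 75.9, 78.5 and 80.2 CPM in control and 66.0, 69.0, 66.4 and 71.4 CPM in Z1C2Z, a small but separate difference (-0.22, SE 0.07, edgeR adjusted p = 0.0911, DESeq2 0.0234). Susd4 was the regulator with every treated sample above every control sample, at 1.38 to 1.79 CPM in control and 2.08 to 3.79 CPM in Z1C2Z (0.77, SE 0.24, edgeR adjusted p = 0.0734, DESeq2 0.0230). Vsig4, a receptor of resident macrophages for C3 fragments, was at 2.18 to 4.53 CPM in control and 0.703 to 1.86 CPM in Z1C2Z (-1.34, SE 0.38, edgeR adjusted p = 0.0608, DESeq2 0.00580). Cd93, a surface protein of endothelial and myeloid cells, was at 221 ± 89.9 CPM and 128 ± 51.9 CPM (-0.79, adjusted p = 0.211), beside endothelial markers of which 0 of 5 passed, with sums of 285 to 759 CPM and 239 to 463 CPM. Cfp, C8g, Serping1, Cr1l, Susd4 and Vsig4 are named because their groups did not overlap or DESeq2 called them, which was seen only in the values.

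**Figure D4:**
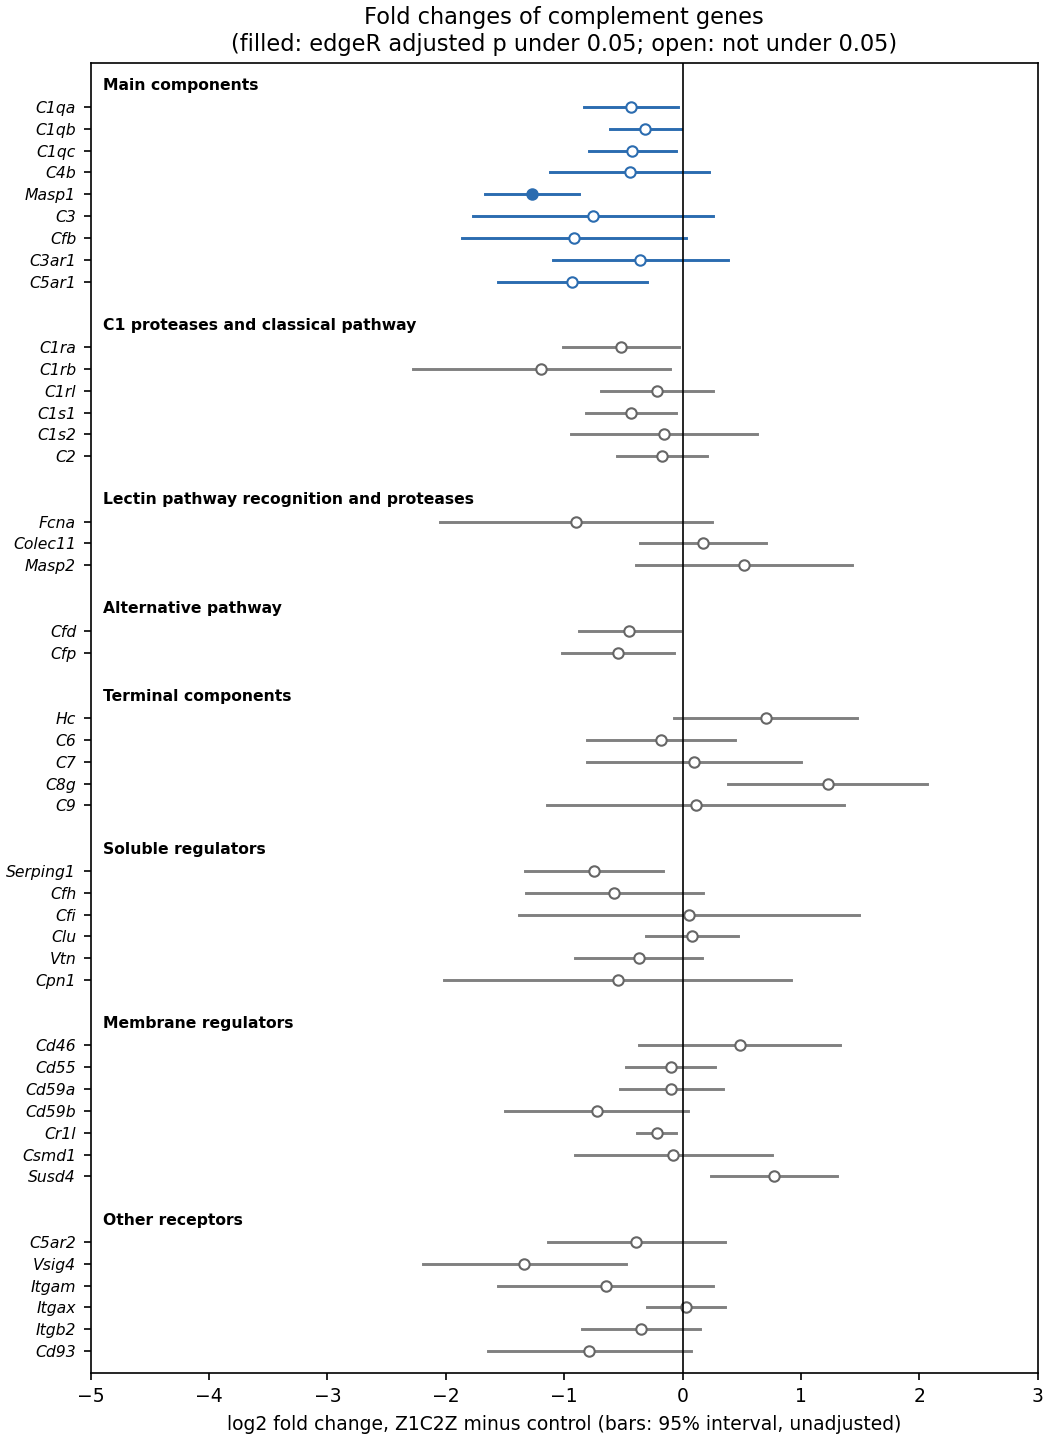
Log2 fold change, Z1C2Z minus control, on the horizontal axis for the 9 main components in blue and the 35 other tested complement genes in grey by role; lines are 95% intervals not adjusted for the number of genes, and a filled point marks an edgeR adjusted p under 0.05. Masp1 is the only filled point, and the 9 main components all lie to the left of 0.

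The genes with profiles most like those of the 9 were found by the same root mean square difference of centred log2 CPM over the 8 samples. For the C1q chains these were Grina, Phf13 and Pcolce (C1qa, nearest 0.083), Tmem106a, Il10rb and Rap2a (C1qb, 0.064) and Sh3bp2, Cyp20a1 and Cd47 (C1qc, 0.044). For C4b they were Gldc, Scn7a and Itga2 (nearest 0.123). For Masp1 they were Hspb7 (0.170), Il1r1 (0.191) and Pde4b (0.201), each of them called lower with log2 fold changes of -1.34, -1.28 and -1.21. C3 was nearest to Itgam (0.182), A530064D06Rik and Asb4, and Cfb to Ppm1j (0.151), A530064D06Rik and Lgi2. Itgam codes for a chain of complement receptor 3, which binds a C3 fragment. C5ar1 was nearest to Lilrb4a (0.090), Lilr4b and Ms4a6d, and Msr1 (0.186) and Cd300lb (0.217) had profiles close to that of C3ar1. Of the 9 genes, C3 alone was closer to another of them (Cfb, 0.158) than to any other gene tested.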

How the data were processed

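Wound skin RNA of 4 control and 4 Z1C2Z samples was sequenced after rRNA depletion and random priming with dUTP marking of the second strand. The labels name Trizol for extraction and the study's methods a column kit. The authors deposited raw counts per gene, without normalization. Aligner, counter, strand setting and genome build are not given in the sources used here. Samples were grouped by title. Counts were filtered with filterByExpr, scaled by TMM and tested in edgeR 4.0.16 (limma 3.58.1, R 4.3.3) by the quasi-likelihood test, with adjustment over 15147 genes. CPM values use these scaled library sizes, and log2 CPM adds a prior count of 2. DESeq2 1.42.0 was an alternative. Single values were compared by a 2-sided exact permutation test. The code was tested on simulated data. Depth was 28856790 to 38974888 counts a sample. The alternatives were RLE size factors, no filter, a minimum of 10 counts in each sample, a block for the sample number, each sample left out, Z1C2Z-2 and Z1C2Z-4 or control-1 and control-5 left out together, a skeletal muscle score (mean log2 CPM of 8 markers) as covariate, and an added log2 fold change over 1.

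The 9 genes, the wider list and the marker lists (macrophage, neutrophil, fibroblast, keratinocyte, hair shaft, skeletal muscle, endothelium, adipocyte, hepatocyte and mast cell) were chosen with earlier results of these data known. Genes named were the 9, any called gene of the wider list, the most abundant tested gene of each role, and the 3 nearest profiles to each of the 9, of which 1 gene is not reported here. Exon lengths came from GENCODE vM21 by symbol and promoters from RefSeq, which held 5 of the 9.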

Additional observations from a re-analysis of the deposited data

Results flagged for a closer look

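In 2 of 42 gene groups of 4 samples, 1 sample stood apart from the other 3 by Dixon's ratio of its gap to the range of the group. Chance flags about 1 group in 20. For C3ar1, control-1 was the highest control sample at 86.3 CPM against 75.8 to 77.1 CPM in the others, a ratio of 0.8694, in a group whose whole range is narrow. For Cfp, control-5 was the highest at 82.8 CPM against 68.6 to 70.2 CPM, a ratio of 0.8745. Control-5 was also the highest control sample for C1qa, C1qb, C1qc, C4b, Masp1, C3 and Cfb.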

How the results depend on the processing

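Of 144 values of the 9 genes under the 16 alternatives, 143 kept their direction, and C3ar1 turned to 0.12 without Z1C2Z-2 and Z1C2Z-4. A kept direction can go with a small value. In that same fit C4b was at -0.02, C3 at -0.11 and C1qb at -0.13. The remaining genes ran from -0.20 (C1qc) to -1.13 (Masp1). The number of the 9 called lower was 2 with DESeq2, 0 without Z1C2Z-2 and Z1C2Z-4, 0 without control-1 and control-5, 0 with the muscle covariate, and 0 to 2 with 1 sample left out. Over all genes, the lower and higher calls were 1513 and 1243 with DESeq2, 189 and 326 with a log2 fold change over 1, 9 and 4 without control-1 and control-5, and 0 and 0 without Z1C2Z-2 and Z1C2Z-4 (1980 genes at an unadjusted p under 0.05 in edgeR) or with the muscle covariate (2970 genes). With 1 sample left out they ran from 0 to 868 and from 0 to 886, and the cause was not tested. The wider list had 3 lower and 1 higher calls with DESeq2, and 0 to 1 in each direction with 1 sample left out (Cfp and Susd4 without Z1C2Z-5). With 1 sample left out, C7 ran from -0.17 to 0.56 and Cd55 from -0.22 to 0.047. Cd55 turned to 0.016 without Z1C2Z-2 and Z1C2Z-4, and with the muscle covariate Fcna turned to 0.26 and C7 moved to 1.55.

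With the sample number as a replicate block, 1 of the 9 was lower (Masp1, -1.38, edgeR adjusted p = 0.0107), with 253 lower and 301 higher calls over all genes, C7 at -0.27 and Cd55 at 0.10. In this fit control-3 and Z1C2Z-4, whose numbers occur once, add nothing to the difference. The deviations of same-numbered samples correlated at -0.10, -0.06 and 0.32, and those of differently numbered samples at -0.41 to 0.39. Whether same-numbered samples share a mouse or a batch cannot be told from these values. With 4 samples a group the exact test cannot go below 0.0286.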
